A study of Mus musculus with 15 samples.

Results

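Pre-mRNA splicing factors were followed through MYC-driven liver tumorigenesis and tumor regression in FVB/N mice. The members were all genes whose symbol in the deposited expression table began with Srsf, Sfrs, Snrp, Hnrnp, Hnrp, Sf3a or Sf3b (for Srsf, Sfrs, Sf3a and Sf3b, followed by a digit). The rule found 57 of 21531 genes with a symbol, read by 120 probes. By role they were 8 Sm core proteins, 5 proteins of the U1 and U2 particles, 8 subunits of SF3a and SF3b, 8 SR proteins, 8 SR-related proteins and 20 hnRNP proteins. Current RefSeq symbols replaced the table's older ones for 37 members (Srsf1 for Sfrs1, Tra2b for Sfrs10, Srek1 for Sfrs12, Scaf11 for Sfrs2ip). The low-signal filter left 56 members, 53 of them well above background on all 15 arrays. Hnrnpul2 did not pass the filter and has no value here.

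RNA was measured on 15 one-colour arrays. The 3 kinds of LAP-tTA/TRE-MYC sample were 4 pre-tumor livers (4 to 5 weeks off doxycycline, no tumor), 4 tumor nodules (8 to 9 weeks off) and 4 tumors in early regression (8 to 9 weeks off, then 72 hours back on doxycycline), and the controls were 3 livers carrying the LAP-tTA transgene without TRE-MYC. LAP-tTA places the tetracycline transactivator under a hepatocyte-selective promoter, and TRE-MYC is transcribed only when the transactivator is active, so doxycycline turns MYC off. The mice received doxycycline chow at 200 mg/kg until they were more than 8 weeks old, and for the controls no doxycycline withdrawal time was stated. Whether each array is a separate animal is not stated. The p-values therefore weigh a difference against the spread between these arrays, which may not be the spread between animals.

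Splicing removes introns from pre-mRNA. The spliceosome is built from small nuclear ribonucleoproteins (snRNPs), in which a ring of Sm proteins holds each U1, U2, U4 or U5 RNA; U1 recognises the start of the intron, and U2, with its SF3a and SF3b subcomplexes, the branch point. SR proteins, which carry arginine-serine repeats, mostly bind exons and promote their inclusion, while hnRNP proteins coat nascent RNA and often repress nearby splice sites. MYC is known to bind and activate several genes of the splicing pathway, Prmt5 and Srsf1 among them, in mouse and human cells. Prmt5 is not a member.

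Levels below are log2 processed signal minus the array's 75th percentile, so 0 is that percentile and a difference of 1 is a doubling. Each gene is represented by its brightest probe, and levels of different genes are not compared. A lone value in parentheses after a fold or a difference is its adjusted p (limma, Benjamini-Hochberg). Between 46.4% (tumor replicate 3, the dimmest) and 90.8% (pre-tumor replicate 4) of 43379 spots on an array were well above background. Within-group Pearson correlations of arrays across genes, which are not independent replicates, ranged between 0.837 and 0.970. Of 3 Myc probes, 1 averaged 4.23 in tumors, 1.13 in pre-tumor livers, -0.43 in regression and -0.93 in controls. The brightest Myc probe averaged 0.81 in tumors and 1.92 in controls, and the third -3.16 in tumors and -1.97 in controls. The list means of 6 markers of dividing cells were 1.89 to 2.14 in tumors, -2.46 to -1.60 in regression and -3.51 to -2.75 in controls, with Cdk1 and Aurkb above background on no control array. Those of 6 hepatocyte markers were 3.13 to 4.44 in tumors, 4.35 to 5.65 in regression and 5.60 to 6.18 in controls. In bulk tissue, more cells of a type and more RNA per cell cannot be told apart.

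Splicing factors rose broadly in MYC tumors. Of 56 tested members, 36 were higher and 0 lower in tumor nodules than in control livers (limma, adjusted p below 0.05), where 9.32% of all 19361 genes were higher and 6.98% lower. The rises ranged between 2.09-fold and 9.47-fold, led by the Sm proteins Snrpf and Snrpd1 and by Hnrnpa1. The median difference over members was 1.37 on the log2 scale, against -0.18 over all genes, and 55 of 56 differences were above 0. In 42 members every tumor array lay above every control array, which held for 13.7% of all genes. Markers moved in the same comparison: 6 of 6 dividing-cell markers were higher and 5 of 6 hepatocyte markers lower in tumors. Of 7 stellate and fibroblast markers 4 were higher and 1 lower, of 8 macrophage markers 3 were higher and 2 lower, and 1 each of the endothelium, bile duct and erythroid markers was lower. Their part in the rise of the splicing factors was not tested.

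**Figure D1:**
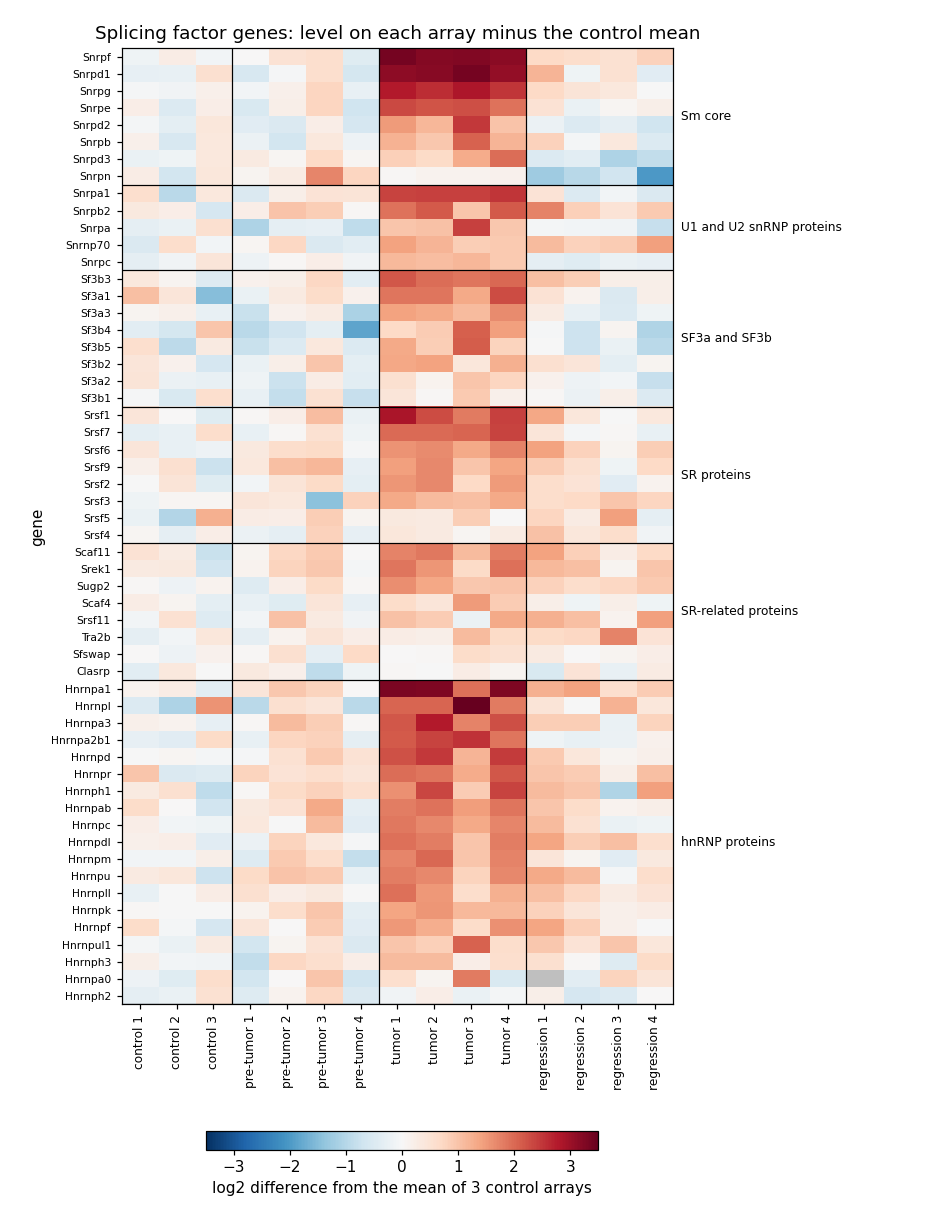
Level of each of the 56 tested splicing factors (rows, grouped by role) on each of 15 arrays (columns, by group), as the log2 difference from the mean of the control arrays. In 42 rows every tumor array is above every control array, 36 genes were called higher than in controls, and the grey cell is a spot left out for Hnrnpa0.

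The Sm core had the highest median difference of the 6 roles, 1.85, and 7 of its 8 members rose, all but Snrpn. Snrpf, the F protein of the ring, stood at 3.39, 3.23, 3.28 and 3.19 in tumor nodules, against -0.12, 0.27 and -0.074 in controls. The groups were far apart and the tumor arrays close together: the difference was 3.24 ± 0.30 (log2, SE), or 9.47-fold, with an adjusted p of 2.21e-06 (n = 4 tumor and 3 control arrays, as in all comparisons with controls). Snrpd1, which pairs with Snrpd2 in the ring, had 3.74, 3.78, 3.97 and 3.69 in tumors, against 0.31, 0.35 and 1.16 in controls. One control array was higher than the other two, but none came near the tumors, and the fit gave 3.19 ± 0.41 (9.11-fold, adjusted p 5.28e-05). Levels of Snrpg, the ring's G protein, were 7.36, 7.16, 7.40 and 7.07 in tumors and 4.53, 4.45 and 4.75 in controls. They did not overlap, and Snrpg rose 6.39-fold (adjusted p 1.91e-05).

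Snrpe rose 4.49-fold (adjusted p 0.000741), Snrpd2 2.88-fold (0.0100) and Snrpd3 2.27-fold (0.0335). Snrpb, which encodes the B proteins, had 1.66, 1.37, 2.48 and 1.63 in tumors, against 0.62, -0.12 and 0.80 in controls. Its difference of 1.35 ± 0.40 (2.55-fold, adjusted p 0.0290) rested on a narrow gap: it missed the threshold without control 1 (0.0508), control 2 (0.138), tumor 1 (0.0569) or tumor 3 (0.0731). Snrpn, the imprinted paralog of Snrpb known for its expression in brain, stood at -0.51, -0.42, -0.44 and -0.40 in tumors and -0.30, -1.19 and -0.17 in controls. The tumor arrays were close together and lay inside the spread of the controls, with a difference of 0.11 ± 0.42 (95% interval -0.79 to 1.01, adjusted p 0.900).

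**Figure D2:**
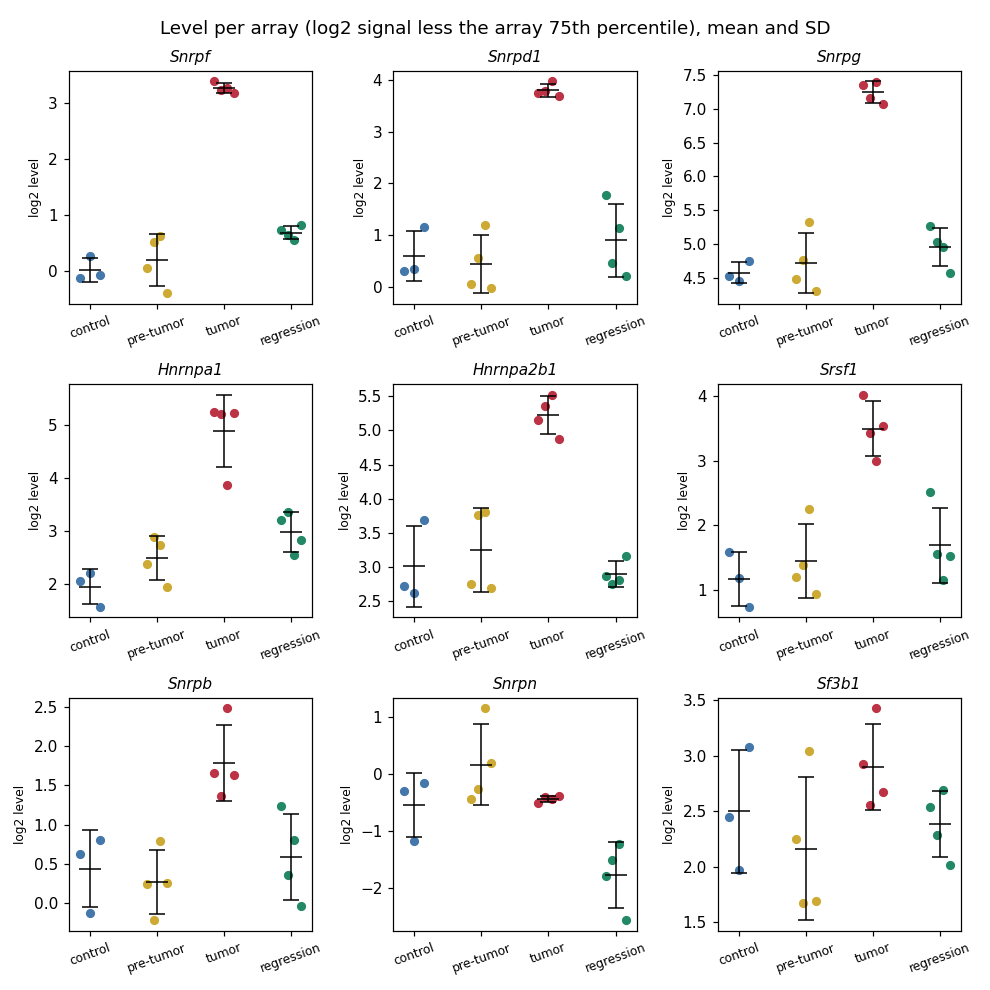
Level (log2 processed signal minus the array's 75th percentile) of 9 splicing factors in control livers, pre-tumor livers, tumor nodules and regressing tumors; points are arrays, bars the mean and SD. Snrpf, Snrpd1, Snrpg, Hnrnpa1, Hnrnpa2b1 and Srsf1 have all 4 tumor arrays above every other array, while Sf3b1 overlaps across the groups and Snrpn is lowest in regression.

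Of the 5 proteins of the U1 and U2 particles, 4 rose. Snrpa1, a U2 protein that binds the U2 RNA together with Snrpb2, had 1.96, 2.00, 1.98 and 2.10 in tumors, against 0.19, -1.35 and -0.048 in controls. The tumor arrays were nearly equal and all above the controls, which spread over more than 1 unit, and the difference was 2.41 ± 0.40 (5.33-fold, adjusted p 0.000518). Its partner Snrpb2 rose 3.47-fold (adjusted p 0.00663). Among U1 proteins, Snrpa rose 2.51-fold (0.0365) and Snrpc 2.09-fold (0.0150), while Snrnp70, the U1 protein that contacts SR proteins, differed by 1.10 ± 0.37 with an adjusted p of 0.0556.

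In SF3a and SF3b, which place U2 at the branch point, 3 of 8 subunits rose. Sf3b3 had 3.33, 3.10, 3.03 and 3.18 in tumors, against 1.51, 1.24 and 0.71 in controls, without overlap (4.01-fold, adjusted p 0.000724). Sf3a1 rose 3.58-fold (0.0169), a call that ended without control 3 (1.10 on the log2 scale, 0.100), and Sf3a3 rose 2.58-fold (0.0171). Sf3b1, the largest SF3b subunit and the one mutated in human myelodysplasia, stood at 2.93, 2.55, 3.43 and 2.67 in tumors and 2.45, 1.97 and 3.08 in controls. Those ranges overlapped, and the difference of 0.40 ± 0.40 had a 95% interval of -0.45 to 1.24 (adjusted p 0.566).

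Of the 8 SR proteins, 5 rose. Srsf1, the founding member and a known oncoprotein when overexpressed, had 4.02, 3.44, 2.99 and 3.55 in tumors, against 1.58, 1.18 and 0.74 in controls. All tumor arrays lay above all control arrays, with a difference of 2.33 ± 0.41 (5.04-fold, adjusted p 0.000846). Srsf7 rose 4.26-fold (0.000347), Srsf6 2.97-fold (0.00473), Srsf2 2.57-fold (0.0223) and Srsf9 2.59-fold (0.0360). The 3 that missed the threshold were Srsf3 (1.21 ± 0.43, 0.0676), Srsf5 (0.38 ± 0.50, 0.673) and Srsf4 (0.27 ± 0.36, 0.680). Among 8 SR-related proteins 3 rose: Scaf11 3.06-fold (0.00990), Srek1 2.83-fold (0.0216) and Sugp2 2.34-fold (0.0134). The dimmer Sugp2 probes, above background on 11 and 5 arrays, did not rise. They averaged -1.58 and -2.81 in controls and -2.10 and -2.89 in tumors. Over the alternatives the Sugp2 difference went as low as 0.21, and its adjusted p as high as 0.704.

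The hnRNP proteins contributed the most rises, 14 of 19 tested. Hnrnpa1, which binds exonic silencers and favours exon skipping, had 5.25, 5.21, 3.87 and 5.21 in tumors, against 2.07, 2.21 and 1.58 in controls. Tumor replicate 3 was more than 1 unit below the other tumors but still above every control, and the difference was 2.93 ± 0.40 (7.63-fold, adjusted p 7.39e-05). Hnrnpa2b1, its relative, had 5.16, 5.36, 5.52 and 4.87 in tumors, against 2.71, 2.61 and 3.68 in controls. The 2 groups were separate, 4.68-fold apart (adjusted p 0.000622). Hnrnpa3, of the same A/B family, had 6.37, 6.97, 5.95 and 6.46 in tumors, against 4.38, 4.33 and 3.91 in controls (4.69-fold, 0.000808), again without overlap.

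Hnrnpl, which binds CA-rich RNA, had 3.26, 3.28, 4.76 and 3.06 in tumors, against 0.76, 0.14 and 2.79 in controls. Control 3 and tumor 3 were both well above the rest of their groups, and the difference of 2.36 ± 0.62 (5.13-fold, adjusted p 0.0146) missed the threshold without control 1 (0.0615) or control 2 (0.0892). Hnrnpd, which binds AU-rich RNA, rose 4.25-fold (0.000850), Hnrnpr 3.54-fold (0.00350) and Hnrnpdl, at its brightest probe, 3.06-fold (0.00470). Levels at the other Hnrnpdl probes moved in both directions, from 1.86, -1.75 and -1.50 in controls to 1.05, -0.94 and -0.12 in tumors. With the mean of all passing probes Hnrnpdl differed by 0.75 (0.130) and Hnrnpr by 0.87 (0.209), both short of the threshold. Hnrnph2 differed by -0.053 ± 0.37 (95% interval -0.84 to 0.73, adjusted p 0.944) and Hnrnpa0 by 0.49 ± 0.56 (0.617). Leaving out 1 array at a time, 19 of the 36 calls stood throughout and 17 were lost at least once: Hnrnph1, Hnrnpl, Hnrnpll, Hnrnpm, Hnrnpu, Scaf11, Sf3a1, Sf3a3, Snrpa, Snrpb, Snrpc, Snrpd2, Snrpd3, Srek1, Srsf2, Srsf9 and Sugp2.

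**Figure D3:**
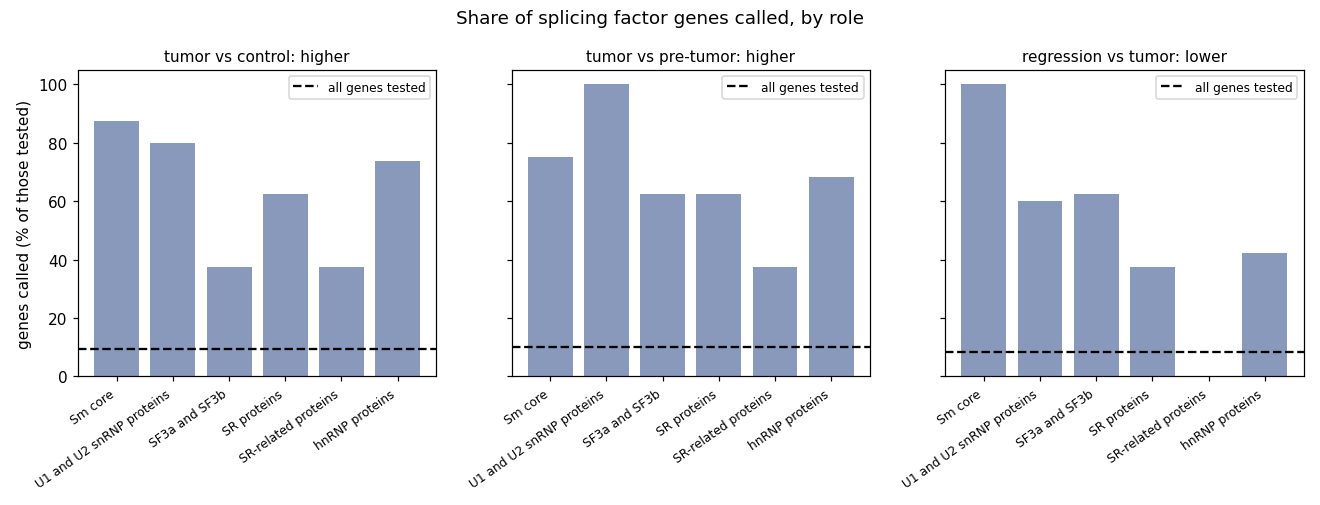
Percent of the tested genes of each role that were called higher in tumor than in control, higher in tumor than in pre-tumor, and lower in regression than in tumor (adjusted p below 0.05, bars from 0), with the share of all 19361 genes as dashed lines (9.32%, 10% and 8.45%). The Sm core has 7, 6 and 8 of 8, the U1 and U2 proteins 4, 5 and 3 of 5, and no SR-related protein was called lower in regression.

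The start regions of members that rose together are shown for 5 of the 7 genes with a window among the 8 largest rises over controls. They were picked by hand, with the matches known, to cover Sm, hnRNP and SR proteins, and the windows of Snrpa1 and Hnrnpl, not shown, hold neither motif. Each is 300 bases read 5′ to 3′, with 250 bases before the annotated start and 50 after it (RefSeq, build GRCm38.p6). Capitals mark the E-box CACGTG, to which MYC-MAX dimers are known to bind, and the ETS-type motif CCGGAAG, each searched on both strands.
Snrpf, chr10:93589609-93589908, minus strand: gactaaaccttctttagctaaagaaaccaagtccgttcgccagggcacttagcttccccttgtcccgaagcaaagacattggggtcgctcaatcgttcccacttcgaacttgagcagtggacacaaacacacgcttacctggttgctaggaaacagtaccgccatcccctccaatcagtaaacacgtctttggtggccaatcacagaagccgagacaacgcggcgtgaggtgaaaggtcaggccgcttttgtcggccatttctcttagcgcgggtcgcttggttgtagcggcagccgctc
Snrpg, chr6:86371290-86371589, plus strand: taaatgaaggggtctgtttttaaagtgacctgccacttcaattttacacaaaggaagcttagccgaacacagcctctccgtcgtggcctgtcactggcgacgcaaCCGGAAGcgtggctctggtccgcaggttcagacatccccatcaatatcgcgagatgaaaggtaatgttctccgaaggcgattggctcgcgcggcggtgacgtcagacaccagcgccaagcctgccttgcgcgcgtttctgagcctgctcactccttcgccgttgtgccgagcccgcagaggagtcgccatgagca
Hnrnpa1, chr15:103240147-103240446, plus strand: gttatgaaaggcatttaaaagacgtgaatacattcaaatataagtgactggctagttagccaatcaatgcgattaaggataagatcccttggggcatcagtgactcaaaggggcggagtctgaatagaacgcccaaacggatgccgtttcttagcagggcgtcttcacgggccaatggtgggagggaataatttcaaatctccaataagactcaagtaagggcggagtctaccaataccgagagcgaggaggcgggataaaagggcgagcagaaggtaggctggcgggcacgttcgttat
Hnrnpa3, chr2:75659009-75659308, plus strand: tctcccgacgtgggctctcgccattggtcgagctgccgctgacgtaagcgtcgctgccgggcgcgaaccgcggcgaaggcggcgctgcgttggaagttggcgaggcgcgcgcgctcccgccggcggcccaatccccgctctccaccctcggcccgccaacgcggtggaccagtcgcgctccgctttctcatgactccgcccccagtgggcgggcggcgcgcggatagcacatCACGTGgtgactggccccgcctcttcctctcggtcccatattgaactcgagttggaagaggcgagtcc
Srsf1, chr11:88047123-88047422, plus strand: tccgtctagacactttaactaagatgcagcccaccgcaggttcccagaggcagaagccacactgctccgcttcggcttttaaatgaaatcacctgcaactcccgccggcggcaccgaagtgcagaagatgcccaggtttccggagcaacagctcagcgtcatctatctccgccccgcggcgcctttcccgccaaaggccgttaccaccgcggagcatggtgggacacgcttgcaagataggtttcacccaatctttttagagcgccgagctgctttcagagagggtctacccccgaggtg
Of these 5, only the Hnrnpa3 window holds the E-box, at bases 233 to 238, and only that of Snrpg holds the ETS-type motif, at bases 106 to 112. Windows were found for 51 of 57 members. The E-box was in 7 of 51 member genes (13.7%), against 8.09% of 27025 genes. The ETS-type motif was in 18 (35.3%), against 9.93% of all genes, and the CCAAT motif in 22 (43.1%), against 41.1%. By the tumor comparison, 5 of 33 members that rose and 2 of 18 that were not called had an E-box, and 10 and 8 had the ETS-type motif. A match is only a run of letters in this window.

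Tumor nodules were also set against pre-tumor livers, which carried the same 2 transgenes and had been off doxycycline for a shorter time. This comparison cannot show whether a rise over controls had begun before tumors formed. Pre-tumor livers are set against controls further below. Of 56 members, 37 were higher and 0 lower in tumors, where 10% of all genes were higher and 9.09% lower. Again 6 of 6 dividing-cell markers were higher and 5 of 6 hepatocyte markers lower. Macrophage markers were 4 of 8 higher and 2 lower, stellate and fibroblast markers 3 of 7 higher and 3 lower, and 2 of 4 neutrophil, 2 of 6 endothelium, 1 of 5 bile duct and 1 of 4 erythroid markers were lower. Folds of the splicing factors ranged between 1.94 and 10.1, and the median difference was 1.22, against -0.12 over all genes. All tumor arrays were above all pre-tumor arrays in 37 members (11.6% of all genes) and below them in 0 (9.46%). Without the 4 arrays with the highest E1A control spots (pre-tumor 1 and 4, control 1 and tumor 4), which left 2 pre-tumor arrays, 13 members were called, with a median difference of 0.93 (5.22% of all genes higher). That alternative was chosen after seeing the data.

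Snrpd1 led, with the tumor levels given above against 0.057, 0.57, 1.20 and -0.019 in pre-tumor livers (3.34 ± 0.38, 10.1-fold, adjusted p 1.19e-05). Snrpf had 0.05, 0.53, 0.62 and -0.39 in pre-tumor livers, which put tumors 8.39-fold higher (1.13e-06). For Snrpg the pre-tumor levels were 4.48, 4.76, 5.32 and 4.30, and tumors were 5.79-fold higher (1.13e-05). None of these pre-tumor arrays reached the lowest tumor array. Hnrnpl levels were 0.29, 1.80, 1.64 and 0.28 in pre-tumor livers, with tumors 6.01-fold higher (0.00391).

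Against pre-tumor livers, Hnrnpa1 was 5.25-fold higher in tumors (0.000191; 2.39, 2.90, 2.73 and 1.96 in pre-tumor livers), and Srsf1 4.17-fold (0.00102; 1.19, 1.39, 2.25 and 0.93). Hnrnpa2b1 was 3.95-fold higher (0.000700; 2.74, 3.76, 3.80 and 2.68) and Snrpb 2.87-fold (0.00756; 0.24, -0.22, 0.79 and 0.26). In all 4 genes the groups were separate. Sf3b1 (pre-tumor 2.25, 1.67, 3.04 and 1.69) differed by 0.73 ± 0.37 (0.206) and Snrpn (pre-tumor -0.45, -0.26, 1.15 and 0.19) by -0.60 ± 0.39 (0.349). In SF3a and SF3b, 5 of 8 subunits passed here, among them Sf3b4 (4.68-fold, 0.00215) and Sf3b5 (3.06-fold, 0.0108), both of which missed the threshold against controls (0.0933 and 0.0668). The 2 comparisons share the tumor arrays. The dimmer Sf3b5 probe, above background on 9 arrays, moved the other way. It averaged -2.02 in controls, -2.54 in pre-tumor livers and -3.37 in tumors. Over the alternatives the Sf3b5 difference from pre-tumor livers went as low as 0.39, and its adjusted p as high as 0.436. Of the 37 calls, 22 stood when any 1 array was left out, and Hnrnpl (0.0910), Snrpb (0.0819), Sf3b4 (0.0790) and Sf3b5 (0.0932) were among those lost without the 4 high-E1A arrays.

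After 72 hours back on doxycycline, 27 of 56 splicing factors had fallen below their tumor levels and 0 had risen, where 8.45% of all genes fell and 8.34% rose. The falls ranged between 2.23-fold and 7.42-fold, with a median difference of -1.10 over members, against -0.13 over all genes. In 33 members all regression arrays lay below all tumor arrays (13.1% of all genes). In the same comparison 6 of 6 dividing-cell markers were lower in regression. Higher there were 3 of 6 hepatocyte, 6 of 8 macrophage, 7 of 7 stellate and fibroblast, 5 of 6 endothelium, 4 of 6 T and NK cell, 3 of 4 erythroid and 1 of 5 bile duct markers, and the part of any of them in the falls was not tested. List means of the macrophage markers were 3.10 to 4.19 in regression and 1.69 to 2.55 in tumors, and those of the stellate and fibroblast markers 1.57 to 3.44 in regression and -0.18 to 0.54 in tumors.

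All 8 Sm core proteins fell, Snrpn among them. Snrpd1 had 1.78, 0.47, 1.14 and 0.22 in regression, far below its tumor levels (-2.89 ± 0.38, 7.42-fold, adjusted p 0.000129). Snrpf had 0.73, 0.64, 0.55 and 0.83 in regression (-2.58 ± 0.28, 5.99-fold, 2.79e-05). The 4 regression arrays of Snrpf were close together, between its tumor and control levels. Snrpg fell 4.90-fold (9.44e-05), Snrpe 4.08-fold (0.000907), Snrpd2 3.86-fold (0.00120) and Snrpd3 3.67-fold (0.00113).

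Snrpb had 1.24, 0.35, 0.80 and -0.043 in regression, all below the tumor arrays (-1.20 ± 0.37, 0.0352), but the call was lost when any 1 of regression 2, 3 or 4 or tumor 1, 3 or 4 was left out (adjusted p 0.0560 to 0.117). Snrpn had -1.79, -1.52, -1.23 and -2.57 in regression, against -0.51, -0.42, -0.44 and -0.40 in tumors. It fell by 1.34 ± 0.39 on the log2 scale (2.53-fold, 0.0272) although it was not called in tumors against controls. That call was lost without regression 1 (0.0559), regression 4 (0.0968) or tumor 1, 2 or 4 (0.0580 to 0.0624), with normexp background correction (0.283) and in the authors' deposited table (0.137).

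Snrpa1 had 0.068, -0.87, -0.49 and -0.90 in regression and fell 5.88-fold (-2.56 ± 0.37, adjusted p 0.000265). Hnrnpa2b1 had 2.86, 2.75, 2.81 and 3.16 and fell 5.05-fold (-2.34 ± 0.35, 0.000345). In both genes the groups were separate. Hnrnpa1 had 3.21, 3.35, 2.54 and 2.83 and fell 3.74-fold (-1.90 ± 0.37, 0.00198). Srsf1 had 2.51, 1.55, 1.15 and 1.53 and fell 3.52-fold (-1.81 ± 0.38, 0.00373). The highest Srsf1 array in regression, replicate 1, was still below the lowest tumor array. Sf3b1 had 2.54, 2.29, 2.70 and 2.01 in regression, overlapping the tumors (-0.51 ± 0.37, 0.459).

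By role, 3 of 5 proteins of the U1 and U2 particles fell (Snrpa1, Snrpa and Snrpc), as did 5 of 8 SF3a and SF3b subunits, 3 of 8 SR proteins, 8 of 19 hnRNP proteins and 0 of 8 SR-related proteins. Srsf7 fell 4.14-fold (0.000339) and Srsf2 2.23-fold (0.0344). Hnrnpa3 fell 3.17-fold (0.00476), Hnrnpd 3.24-fold (0.00280) and Hnrnpl 3.59-fold (0.0365), the last lost without any 1 of 6 arrays (-1.45, 0.115 without tumor 3). Snrnp70 differed by -0.036 ± 0.34 between regression and tumors (0.977), Snrpb2 by -0.81 ± 0.38 (0.199) and Hnrnpdl by -0.64 ± 0.33 (0.240). Leaving out 1 array at a time, 18 of the 27 falls stood throughout, and those of Hnrnpab, Hnrnpc, Hnrnpl, Hnrnpm, Sf3a1, Sf3b4, Snrpb, Snrpn and Srsf2 were lost at least once.

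**Figure D4:**
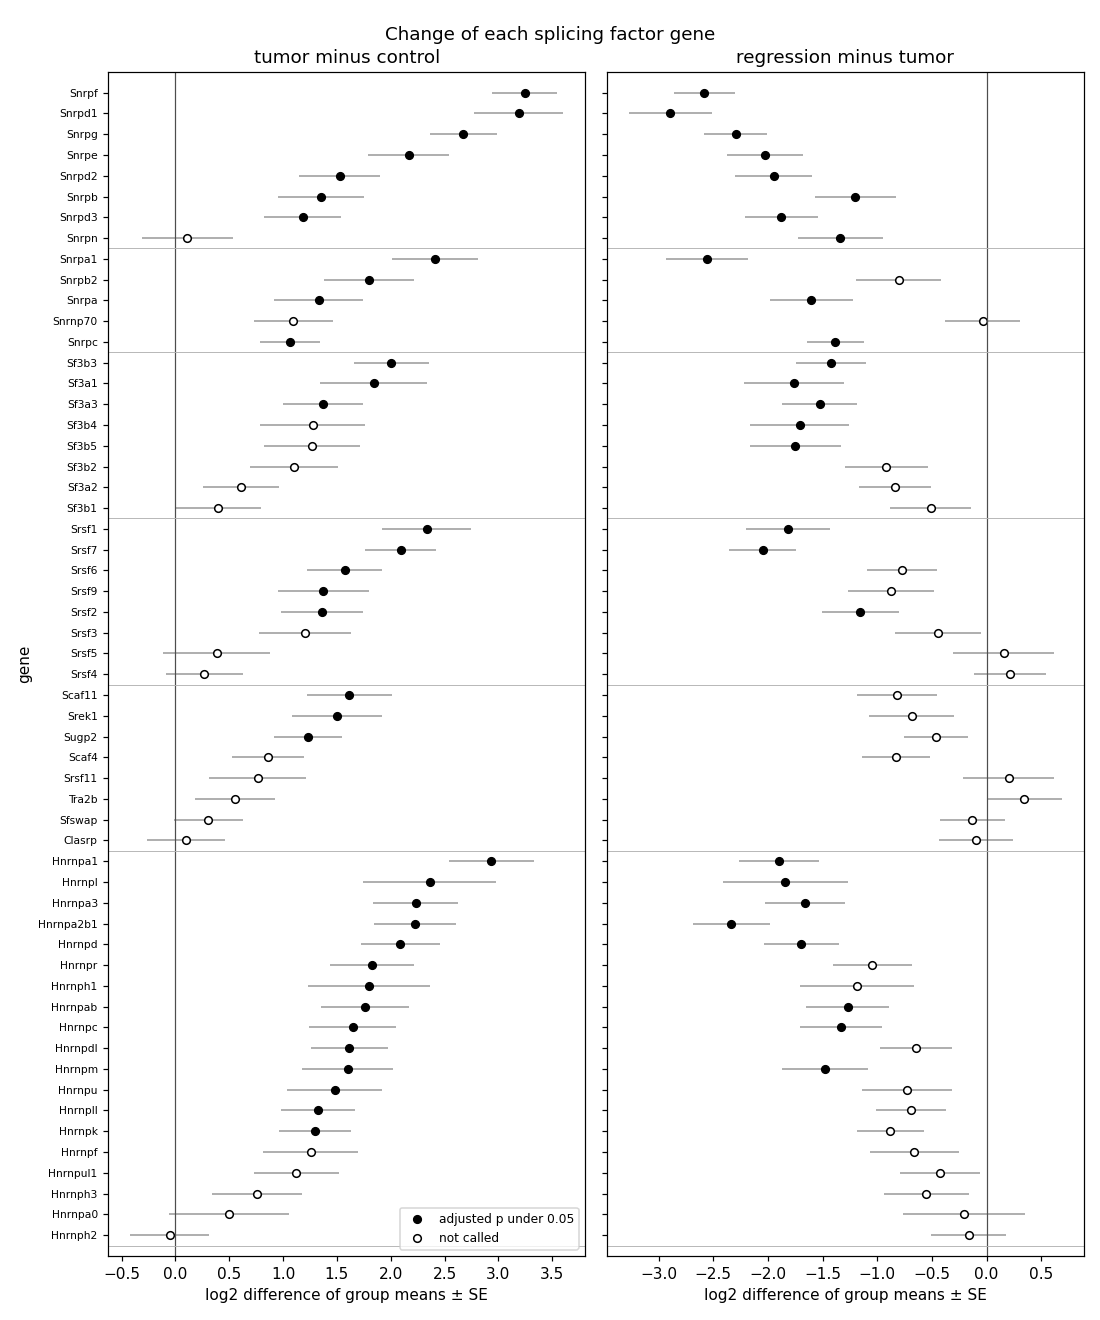
Log2 difference with its SE for each tested splicing factor, tumor minus control and regression minus tumor, with filled points at an adjusted p below 0.05. The differences run to 3.24 in tumors over controls and to -2.89 in regression over tumors, and both share the tumor arrays.

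Regressing tumors were then set against control livers. Here 0 of 56 members were called in either direction, where 8.35% of all genes were (5.02% higher, 3.33% lower). At an unadjusted p below 0.05 there were 10 members, 9 of them higher, where 24.8% of all genes had such a p. The median difference was 0.39, against -0.25 over all genes, and 12 members had all regression arrays above all controls (10.2% of all genes) and 2 had them all below (15.2%). In regression 3 of 6 dividing-cell, 6 of 8 macrophage, 5 of 7 stellate and fibroblast, 4 of 6 T and NK cell, 3 of 6 endothelium, 1 of 5 bile duct and 1 of 4 erythroid markers were higher than in controls, and 2 of 6 hepatocyte markers and 1 macrophage marker lower. Snrpn had the lowest adjusted p (-1.23 ± 0.42, 0.0880), with all regression arrays below the controls. Snrnp70 had 2.53, 2.24, 2.32 and 2.88 in regression, 2.85, 2.63, 2.30 and 2.35 in tumors and 0.92, 2.05 and 1.34 in controls (1.06 ± 0.37 over controls, 0.0918). Hnrnpdl had 3.13, 2.62, 2.80 and 2.34 in regression, 3.68, 3.54, 2.71 and 3.54 in tumors and 1.92, 1.98 and 1.35 in controls (0.97 ± 0.36, 0.108). At these probes all regression arrays were above all controls and some overlapped the tumors. The other Hnrnpdl probes were mixed, averaging 1.86, -1.75 and -1.50 in controls and 0.93, -1.86 and -1.07 in regression.

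Hnrnpa1 differed by 1.03 ± 0.40 from controls (0.123), Srsf1 by 0.52 ± 0.41 (0.465) and Snrpf by 0.66 ± 0.30 (0.190). For Hnrnpa2b1 the difference was -0.11 ± 0.38 (0.895), for Snrpb 0.15 ± 0.40 (0.857) and for Sf3b1 -0.12 ± 0.40 (0.895). Other settings gave 0 to 6 calls: normexp background correction with quantile normalization called Hnrnpk, Snrnp70, Snrpf, Snrpg, Srsf3 and Sugp2 higher. Without pre-tumor replicate 3, Snrpn passed as lower (0.0471).

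In pre-tumor livers, 0 of 56 members were called against controls by limma, where 0% of all genes were called; at an unadjusted p below 0.05 there were 0 members, and 2.61% of all genes. The median difference was 0.17, against -0.04 over all genes, with a range of -0.95 to 0.71. Without pre-tumor replicate 3 the members' median was 0.019, against 0.047 over all genes. Without pre-tumor replicate 1, 2 or 4 it was 0.25, 0.10 and 0.29, against -0.07, -0.02 and -0.08 over all genes. Without the 4 high-E1A arrays, which left 2 pre-tumor arrays, it was 0.51, against -0.13. No member had separate groups (1.89% of all genes lay wholly above and 0.961% below). Sf3b4 had -1.28, -1.01, -0.66 and -2.17 in pre-tumor livers, against -0.69, -0.93 and 0.64 in controls (-0.95 ± 0.49). Snrpn differed by 0.71 ± 0.42, with pre-tumor replicate 3 the highest of its arrays. Snrpa had -0.14, 0.64, 0.68 and 0.078, against 0.64, 0.72 and 1.52 in controls (-0.64 ± 0.41). All adjusted p-values of members were 1.00. Hnrnpa1 differed by 0.54 ± 0.40, Srsf1 by 0.27 ± 0.41 and Hnrnpa2b1 by 0.24 ± 0.38, while Snrpb differed by -0.17 ± 0.40 and Sf3b1 by -0.33 ± 0.40.

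Different probes of a member did not always move alike. Of 35 members with 2 or more probes past the filter, 25 had all probes on the same side of 0 in tumors against controls, 26 in tumors against pre-tumor livers and 29 in regression against tumors. None had probes called in opposite directions. Hnrnpa2b1 was represented by a probe at chr6:51392376-51392436 (build mm9, per the array files), which differed by 2.23 ± 0.38 (adjusted p 0.000715), adjusted over all passing probes. A second probe at chr6:51390921-51390980 differed by -0.12 ± 0.38 (adjusted p 0.878) in tumors against controls and by 0.069 ± 0.35 (adjusted p 0.947) in regression against tumors. The change of Hnrnpa2b1 thus stood in 1 of its 2 probes, and with the mean of its probes its rise over pre-tumor livers missed the threshold (0.65 on the log2 scale, adjusted p 0.115). Sf3b3 likewise rose in 1 of 3 probes, the other 2 differing by 0.062 ± 0.31 (adjusted p 0.922) and -0.31 ± 0.54 (adjusted p 0.758). With the mean of its probes Sf3b3 differed by 0.59 (adjusted p 0.193) in tumors against controls.

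Other genes were called by a dimmer probe and not by the brightest. Tra2b, an SR-related activator of exon inclusion, differed by 0.56 ± 0.37 (adjusted p 0.358) at its brightest probe (mm9 chr16:22174323-22174382) and by 1.97 ± 0.35 (adjusted p 0.000904) at another (chr16:22161559-22161618). The second Tra2b probe also fell in regression (-1.35 ± 0.32, adjusted p 0.00864). Srsf11 differed by 0.76 ± 0.45 (adjusted p 0.291) at its brightest probe, against 1.63 ± 0.38 (adjusted p 0.00679) and 1.45 ± 0.32 (adjusted p 0.00526) at the others. A dimmer Snrnp70 probe rose in tumors over controls (1.75 ± 0.30, adjusted p 0.000817) and fell in regression (-0.99 ± 0.28, adjusted p 0.0235). Hnrnpa1 rose at 4 of 4 probes, but unequally. Its brightest probe over all arrays averaged 1.95 in controls and 4.89 in tumors. The others averaged 2.71, 0.34 and -2.04 in controls and 4.03, 4.19 and -0.02 in tumors. The probe at 2.71 was thus brighter in controls than the probe used. Which exon or UTR each probe lies in was not analysed here.

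**Figure D5:**
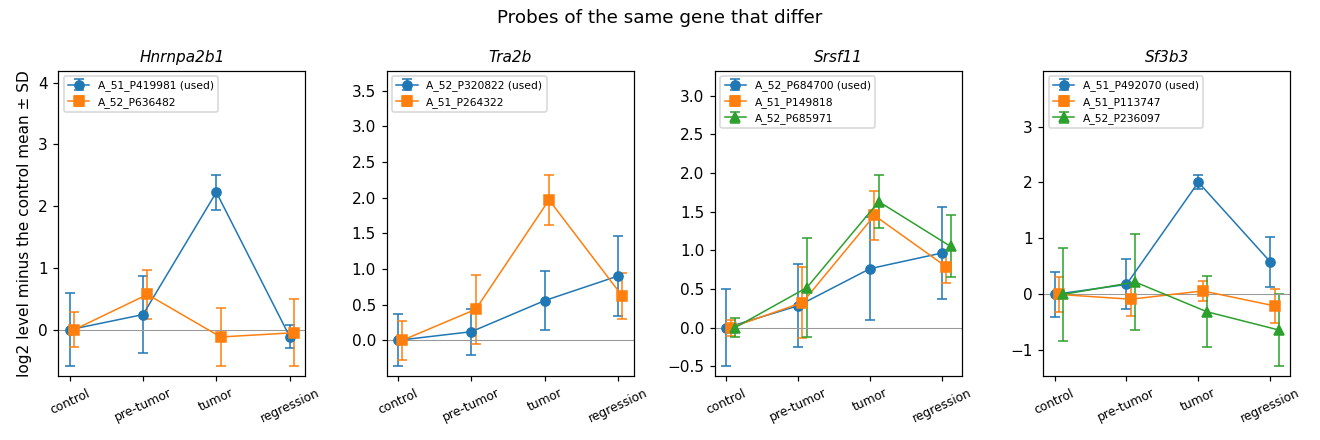
Level of each probe of Hnrnpa2b1, Tra2b, Srsf11 and Sf3b3 relative to its own control mean (log2, mean and SD over arrays) in control, pre-tumor, tumor and regression samples. In Hnrnpa2b1 and Sf3b3 1 probe rises in tumors, while the others differ from controls by -0.12 (Hnrnpa2b1) and by 0.06 and -0.31 (Sf3b3).

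Genes of the splicing pathway outside the member list were taken from 7 lists of known components. In tumors against controls 0 genes of any list were lower, where 6.98% of all genes were. Of 34 other snRNP and core factors, 18 were higher in tumors than in controls, with a median difference of 1.24, and 15 fell in regression. The counts of this and the next lists stand beside 9.32% of all genes higher in tumors, 8.45% lower and 8.34% higher in regression against tumors, and a median of -0.18 in tumors against controls. The lowest adjusted p-values were those of Lsm3 and Lsm7, members of the Lsm ring that binds U6 RNA: Lsm3 rose by 3.10 ± 0.34 (adjusted p 1.07e-05) in tumors over controls and Lsm7 by 2.63 ± 0.37 (adjusted p 0.000111). Both fell in regression, Lsm3 by 2.50 and Lsm7 by 2.26 on the log2 scale. Of 23 factors of the Prp19 complex and the catalytic steps, 4 rose and 5 fell in regression, with a median tumor difference of 0.42; Ppil1, a spliceosomal cyclophilin, led the rises (3.73 ± 0.51, adjusted p 8.33e-05). Of 8 minor spliceosome proteins 0 were called by limma in tumors against controls or in regression against tumors (2 and 4 at an unadjusted p below 0.05, as were 28.5% and 26.2% of all genes), and the lowest adjusted p against controls was that of Zrsr2 (-1.04 ± 0.39, adjusted p 0.0863).

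In the pathway that loads Sm proteins onto snRNA, 5 of 16 genes rose over controls (9.32% of all genes did), 8 rose over pre-tumor livers (10%) and 9 fell in regression (8.45%). Gemin5, the SMN complex subunit that recognises snRNA, rose by 2.67 ± 0.36 (adjusted p 8.17e-05) in tumors over controls and fell by 2.73 in regression. Prmt5, which methylates Sm proteins before assembly, rose by 2.15 ± 0.31 (adjusted p 0.000221) and in regression fell by 2.07 ± 0.29 (adjusted p 0.000265). Of 9 exon junction complex genes, 4 rose and 6 fell in regression. Magohb rose by 4.09 ± 0.45 (adjusted p 1.03e-05), although it was above background on only 1 of 3 control arrays. Of 8 SR kinases and transport factors, 1 rose, a share near that of all genes, namely Srpk2 (1.03 ± 0.31, adjusted p 0.0317); Srpk1, which phosphorylates SR proteins, differed by 0.98 ± 0.34 (adjusted p 0.0606).

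Of 34 other splicing regulators 11 rose over controls (9.32% of all genes did), among them Tra2a (2.07 ± 0.43, adjusted p 0.00285), Nono (1.89 ± 0.38, adjusted p 0.00224) and Ptbp1, the polypyrimidine tract binding protein (1.24 ± 0.34, adjusted p 0.0202). Against tumors, 6 of the 34 fell in regression (8.45% of all genes) and 1, Celf2, rose (8.34% of all genes; 1.88 ± 0.35, adjusted p 0.00162; named after its value was seen). Sfpq, a partner of Nono, was higher in tumors (1.58 ± 0.42, adjusted p 0.0153) and in regression (1.80 ± 0.42, adjusted p 0.0125) than in controls. Pkm, whose alternative exons are known in human cells to be chosen by Hnrnpa1, Hnrnpa2b1 and Ptbp1, rose by 4.32 ± 0.41 (adjusted p 4.70e-06) in tumors over controls, and was still higher in regression than in controls (2.43 ± 0.41, adjusted p 0.00160). Which Pkm isoform its probe reads was not analysed here.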

How the data were processed

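RNA of 15 mouse samples was amplified, labelled with Cy3 and hybridised to Agilent 4x44K arrays, 1 array per sample, on 4 slides scanned on 1 day. The deposited intensity values (processed signal) were background-subtracted and spatially detrended by Agilent Feature Extraction 10.5.1.1 with genome build mm9, per the file headers. The authors' deposited table holds log2 values with near-equal quantiles across arrays; its normalization is not given in the sources used here, and it served for gene symbols and as an alternative.

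Here, log2 processed signal was centred on each array's 75th percentile. Outlier spots (0.452%) were left out. Probes well above background on at least 3 of 15 arrays were kept (29924 of 34908 with a symbol), and a gene took the probe with the highest mean. limma 3.58.1 in R 4.3.3 fitted 1 model of 4 groups (11 residual degrees of freedom), with two-sided p-values adjusted by Benjamini-Hochberg over 19361 genes and a threshold of 0.05; the fit was tested on simulated data. Probe tests were adjusted over passing probes. Of the scanner columns, the pixel median stood in for the mean signal in normexp (offset 50). Each slide held at most 1 array of a group.

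The members and lists were chosen with earlier results of these data known. Members get per-array values by rank of change in each comparison: 8 rises in tumors against controls, 4 elsewhere, the 3 lowest adjusted p-values where none passed, and always Srsf1, Hnrnpa1, Hnrnpa2b1, Snrpb, Snrpn and Sf3b1. From the other lists up to 4 genes each were named by adjusted p, and always Myc, Prmt5, Ptbp1 and Pkm. In all, 28 alternatives were run: other normalizations, filters and probe rules, blocks, pairs of groups alone, and arrays left out. Array number limits the precision.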

Additional observations from a re-analysis of the deposited data

Results flagged for a closer look

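In 11 of 167 groups of 4 arrays, 1 array of a splicing factor stood apart from the other 3 by Dixon's criterion at the 95% level; chance gives this in about 1 in 20 groups. Of the 11, 7 are tumor replicate 3, the array with the fewest spots above background. On it Hnrnpa1 was at 3.87 (other tumors 5.21 to 5.25), Hnrnpdl at 2.71 (3.54 to 3.68), Hnrnpu at 5.13 (6.04 to 6.15), Scaf11 at 2.26 (2.89 to 3.00) and Sf3b2 at 1.59 (2.45 to 2.60). On the same array Hnrnpl was high at 4.76 (3.06 to 3.28), as was Snrpa at 3.35 (1.89 to 1.98). Srsf7 was at 2.19 in tumor replicate 4 (1.80 to 1.86). In regression, Hnrnpa3 was at 3.99 in replicate 3 (4.98 to 5.06) and Snrpa at 0.16 in replicate 4 (0.85 to 0.88). Srsf4 was at 3.00 in pre-tumor replicate 3 (1.86 to 1.99). Any cause of these values was not tested.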

How the results depend on the processing

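No member's called difference changed sign under any of the 28 alternatives. In some of them it could not. Leaving out arrays of other groups, fitting only the 2 groups compared and another variance estimate leave the difference as it is. Of the calls, 15 of 36 rises over controls, 10 of 37 rises over pre-tumor livers and 16 of 27 falls in regression stood in every alternative. Snrpf, Snrpd1, Snrpg, Snrpa1, Srsf1, Hnrnpa1, Hnrnpa3 and Hnrnpa2b1 are among the rises over controls and the falls that did. The replicate spread of a median was taken as the pooled within-group SD of the arrays' median member level. Median differences that moved by more than it were, in tumor against control, 0.76 with normexp, 1.68 with median centring and 1.10 in the authors' table. In tumor against pre-tumor they were 0.85 with normexp, 1.49 with median centring, 0.98 with the mean of all passing probes and 0.93 without the 4 high-E1A arrays, which left 13 calls. In regression against tumor they were -0.57 with normexp and -0.80 in the authors' table, and in regression against control 0.69 with median centring and 0.14 with the mean of all passing probes. Smaller moves were 1.20 with the mean of all passing probes in tumor against control, and 0.21 with normexp and 0.52 with quantile normalization in regression against control. Pre-tumor against control had a median of 0.51 without the 4 high-E1A arrays, and 0.02 to 0.29 without single arrays, lowest without pre-tumor replicate 3. Median centring moved the all-gene median by 0.32 for tumors over controls, 0.26 for tumors over pre-tumor livers and 0.31 for regression over controls. Both centrings subtract a constant per array, so members and all genes move together. The members' median relative to all genes, 1.55 either way in tumor against control, is therefore no check of the centring. Calls of higher members in regression against control were 6 with normexp, 3 in the authors' table (Snrnp70, Srsf3 and Sugp2), 1 with quantile normalization (Srsf3), 1 without the dimmest and the brightest array (Hnrnpa1) and 0 as reported. Leaving out single arrays gave 28 to 39 members higher in tumors than in controls, 26 to 39 higher than in pre-tumor livers, 20 to 28 lower in regression than in tumors, and 0 to 1 lower in regression than in controls. The replicate block gave 41 rises over controls, 38 over pre-tumor livers, 28 falls in regression, 1 call of regression against control (Tra2b) and 0 before tumors; the correlations of same-numbered arrays' deviations were mixed (-0.34 to 0.61) and not all over 0.1, so the numbers were not taken to pair the samples. The slide as a block gave 26, 27, 21, 0 and 0 in that order, and fits of only the 2 groups compared gave 24, 28, 27, 0 and 0. The 4 high-E1A arrays had control spots at 5.08 to 6.34, against 2.67 to 3.93 on the others; leaving them out, and leaving out the dimmest and brightest arrays, were chosen after seeing the data. The cause of these shifts was not tested. Signal over background limits the dim members: Srsf3, Hnrnph1 and Sf3a1 were above it on 14 arrays.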
